A study of Mus musculus with 2 samples.

Results

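The IL-6 and STAT3 pathway components described here were 9 listed genes, namely Il6ra, Osmr, Lifr, Lepr, Il1r1, Il6st, Stat3, Socs3 and Cebpd. They were chosen by name from known biology and not by a rule on their values, although earlier results of these data were known. Of the 9 listed genes, 8 were found among the 27998 genes of the count tables, and Cebpd was not analysed here. The genes were followed in hepatocytes isolated by 2-step collagenase perfusion from male C57BL/6 mice (C57BL/6J in the study's methods) on a normal diet. The mice were labelled as 10 to 12 weeks old. Cells were taken before partial hepatectomy (PHx, 0 h, the undamaged liver) and 48 h after it (PHx48h). In PHx most of the liver is cut away and what is left grows back. The data are scRNA-Seq counts (10X Genomics chemistry version 2), in which each droplet carries a barcode and each captured molecule a unique molecular identifier (UMI). There was 1 library per time point, made from the preparation of a single mouse, so that no difference between 0 h and 48 h has a replicate check, no test was possible, and every interval printed here covers counting error only.

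IL-6 binds its receptor chain, encoded by Il6ra, and the complex then recruits the shared signalling chain gp130, encoded by Il6st, which activates Janus kinases and the transcription factor STAT3. The receptors for oncostatin M (Osmr) and leukemia inhibitory factor (Lifr) also pair with gp130, the leptin receptor (Lepr) is a related receptor that signals through STAT3, and the IL-1 receptor (Il1r1) acts mainly through NF-κB. STAT3 induces its own inhibitor, SOCS3. In liver the pathway is known for the acute phase response and for the early response of hepatocytes to PHx, with IL-6 coming largely from Kupffer cells, the resident macrophages.

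Barcodes were grouped by the share of UMIs from 13 mitochondrial (mt) genes and by markers of other cell types. The barcodes above 30% mt numbered 3858 at 0 h and 751 at 48 h, with 5751364 and 4948206 non-mt UMIs. Those under 2% mt numbered 52319 and 510, with 78175384 and 3070402. Barcodes with at least 3 different markers and 5 marker UMIs of a non-hepatocyte class, beyond the background of their library, numbered 742 and 128, with 1889648 and 930712, and were taken out of both mt sets. The remaining 2283 and 197 barcodes lay between 2% and 30% mt. Levels are in CPM, which here means UMIs of a gene per 1000000 non-mt UMIs of the set.

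The libraries differed in ways that touch every value. The undamaged library held 59202 barcodes with a median of 1436 UMIs and the PHx48h library 1586 with a median of 6838.5. Under 2% mt the median UMIs were 1421 at 0 h and 5298.5 at 48 h. The study kept only a small part of the undamaged barcodes after its filters. Whether the barcodes under 2% mt held the same kind of droplet at both times was not tested. Between the libraries 148 barcode sequences were shared. Without these 148 the calls of 48 h against 0 h given below were the same, except that Il1r1 under 2% mt, with a ratio of 0.503, was no longer called. The summed level of 10 hepatocyte markers was 125878 and 125170 CPM above 30% mt and 110630 and 94699 under 2% mt. It was still 67420.5 and 49464.3 in the non-hepatocyte barcodes, so hepatocyte RNA was present in all of them. The sums hid opposite differences of single markers. Under 2% mt Alb was at 47931 and 22174 and Cyp3a11 at 14691 and 4823, whereas Apoa1 was at 8425 and 16233 and Fabp1 at 4758 and 15611. In both mt sets the macrophage, endothelial and stromal marker lists summed to between 15.97 and 32.5 CPM. They summed to between 2151 and 5524 in the non-hepatocyte barcodes, a contrast that follows from using these markers to define the sets. Of the stromal list, Pdgfrb was at 0 at 48 h in both mt sets. Within a set, fewer barcodes that express a gene and less RNA per barcode cannot be told apart from its level.

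Promoter sequence is shown for the 3 members that were at least 2-fold lower at 48 h in the barcodes under 2% mt (values below), to let a reader see what lies upstream of them. The stretches are the 250 bases before a RefSeq start (GRCm38.p6), 5′ to 3′ on the strand of the gene, and none overlaps an annotated exon of GENCODE M21. Lifr and Il1r1 have several RefSeq starts, of which 1 is shown. Capitals mark matches to TTGCNNAA, a core of C/EBP sites.
Il6st, chr13:112463820-112464069, plus strand: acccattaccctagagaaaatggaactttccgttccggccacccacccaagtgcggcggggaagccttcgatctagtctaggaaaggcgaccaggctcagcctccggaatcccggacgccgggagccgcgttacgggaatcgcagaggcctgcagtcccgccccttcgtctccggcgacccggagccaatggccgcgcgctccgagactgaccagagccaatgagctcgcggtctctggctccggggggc
Lifr, second start, chr15:7140292-7140541, plus strand: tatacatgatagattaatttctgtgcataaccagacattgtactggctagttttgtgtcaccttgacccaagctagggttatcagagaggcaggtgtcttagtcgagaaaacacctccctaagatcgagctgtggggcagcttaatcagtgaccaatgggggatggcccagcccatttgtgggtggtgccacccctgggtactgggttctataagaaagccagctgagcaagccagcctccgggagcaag
Il1r1, first start, chr1:40224830-40225079, plus strand: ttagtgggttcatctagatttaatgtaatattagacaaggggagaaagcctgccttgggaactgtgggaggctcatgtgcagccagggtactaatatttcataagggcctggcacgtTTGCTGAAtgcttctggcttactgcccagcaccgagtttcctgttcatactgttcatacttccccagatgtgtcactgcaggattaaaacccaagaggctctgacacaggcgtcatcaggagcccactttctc

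All 8 members had a RefSeq promoter, in 11 windows. The STAT core TTCNNNGAA, which reads the same on both strands, was found in 1 of them, as TTCTTAGAA 145 bases before the RefSeq start of Socs3 on chromosome 11, in a window of which 77 bases are annotated as exon. TTGCNNAA, searched on both strands, was also found in 1 window, that of Il1r1 shown above, 125 bases before the start. Over 32851 windows of all genes the shares were 7.02% and 9.56%. The letters in a window describe it and do not show binding.

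Il6ra, which encodes the IL-6-binding chain, lies on chromosome 3 at 89864059 to 89913196 (GRCm38, minus strand). Above 30% mt its level was 29.9 CPM at 0 h (172 UMIs, 95% exact Poisson interval 25.6 to 34.7) and 37.2 at 48 h (184 UMIs, 32.0 to 43.0). Under 2% mt it was 15.1 (1182 UMIs) and 8.47 (26 UMIs), and in the non-hepatocyte barcodes 43.4 (82 UMIs) and 23.6 (22 UMIs). The ratios of 48 h to 0 h were 1.24 (95% counting interval 1.005 to 1.54), 0.560 (0.364 to 0.825) and 0.545 (0.324 to 0.881) in the order just given, so the 48 h library was higher in the first set and lower in both others. The last set mixes cell classes that differed in Il6ra and in their share of UMIs at the 2 times (below). The direction above 30% mt depended on the scaling, since the ratio was 0.848 after TMM normalization, a method that sets the bulk of genes to no change.

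Lifr, on chromosome 15 at 7090614 to 7197489 (plus strand), encodes the receptor chain for leukemia inhibitory factor. It gave the most UMIs of the members, with 564 CPM (3245 UMIs, 545 to 584) at 0 h and 158 (781 UMIs, 147 to 169) at 48 h above 30% mt. Under 2% mt its level was 525 (41064 UMIs) at 0 h and 70.3 (216 UMIs) at 48 h. The non-hepatocyte barcodes had 500 (945 UMIs) and 298 (277 UMIs). At 0 h the sets were thus within a narrow range, and at 48 h Lifr was lower in all of them, by 3.57-fold (3.31 to 3.87), 7.47-fold (6.53 to 8.57) and 1.68-fold (1.47 to 1.93). These ratios were lower than those of all but 1.15%, 1.02% and 16% of the genes tested in the same set.

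Osmr, Lepr and Il1r1 were sparse in the mt sets. Osmr, the oncostatin M receptor (chromosome 15, 6813577 to 6874969), had 1 UMI at 0 h and 5 at 48 h above 30% mt and 15 and 1 under 2% mt, whereas the non-hepatocyte barcodes gave 19.1 CPM (36 UMIs, 13.3 to 26.4) and 8.60 (8 UMIs, 3.71 to 16.9). The non-hepatocyte level of Osmr was 2.22-fold lower at 48 h, with an interval of 1.01 to 5.52 that almost reached no difference. Lepr (chromosome 4, 101717404 to 101815352) had 10 and 11 UMIs above 30% mt, 130 and 3 under 2% mt and 19 and 7 in the non-hepatocyte barcodes, where its level was 10.1 and 7.52 CPM, and all 3 intervals of its ratio included 1. Il1r1, the signalling receptor of IL-1 (chromosome 1, 40225080 to 40317257), was at 13.9 CPM (80 UMIs) and 16.8 (83 UMIs) above 30% mt, at 16.5 (1290 UMIs) and 8.14 (25 UMIs) under 2% mt, and at 21.7 (41 UMIs) and 30.1 (28 UMIs) in the non-hepatocyte barcodes. Of these, the Il1r1 ratio under 2% mt was 2.03-fold lower at 48 h (1.37 to 3.14), and the intervals of the others included 1.

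Il6st, on chromosome 13 at 112464070 to 112510086 (plus strand), encodes gp130. Its level above 30% mt was 69.9 CPM at 0 h (402 UMIs, 63.2 to 77.1) and 35.6 at 48 h (176 UMIs, 30.5 to 41.2), a difference of 1.97-fold (1.64 to 2.36). Under 2% mt it was 77.8 (6081 UMIs) at 0 h and 7.17 (22 UMIs) at 48 h, which was 10.9-fold lower (7.16 to 17.3), a lower ratio than all but 0.415% of the genes tested. In the non-hepatocyte barcodes the level was several times higher than in both other sets, at 375 (709 UMIs, 348 to 404) and 284 (264 UMIs, 250 to 320), with a ratio of 0.756 (0.654 to 0.872). Il6st was therefore lower at 48 h in all 3 sets, each taken as a whole.

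Stat3 (chromosome 11, 100885098 to 100939540, minus strand) differed in the opposite direction in the 2 mt sets. Above 30% mt it was at 42.9 CPM at 0 h (247 UMIs, 37.8 to 48.6) and at 83.9 at 48 h (415 UMIs, 76.0 to 92.3), a ratio of 1.95 (1.66 to 2.30). Under 2% mt it was at 52.7 (4117 UMIs) and 40.1 (123 UMIs), a ratio of 0.761 (0.631 to 0.910), and in the non-hepatocyte barcodes at 92.1 (174 UMIs) and 75.2 (70 UMIs), a ratio of 0.817 (0.610 to 1.08). The Stat3 ratio above 30% mt stood higher than that of 67.6% of the genes tested there, so it was near the middle of a set in which most genes were higher at 48 h.

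Socs3 (chromosome 11, 117966079 to 117970047, minus strand), the feedback inhibitor, was sparse throughout. Its level was 7.48 CPM (43 UMIs, 5.41 to 10.1) and 5.05 (25 UMIs, 3.27 to 7.46) above 30% mt, and 3.04 (238 UMIs) and 1.63 (5 UMIs) under 2% mt, with ratios whose intervals included 1. The non-hepatocyte barcodes gave 3.18 (6 UMIs, 1.17 to 6.91) and 10.7 (10 UMIs, 5.15 to 19.8), a ratio of 3.38 (1.11 to 11.3) that rests on 16 UMIs in all. The summed level of 14 genes known to respond to tissue dissociation, such as the immediate early genes Fos and Jun, was 377 and 791 CPM above 30% mt, 130 and 220 under 2% mt and 564 and 639 in the non-hepatocyte barcodes. The part of dissociation in the Socs3 values was not tested.

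**Figure D1:**
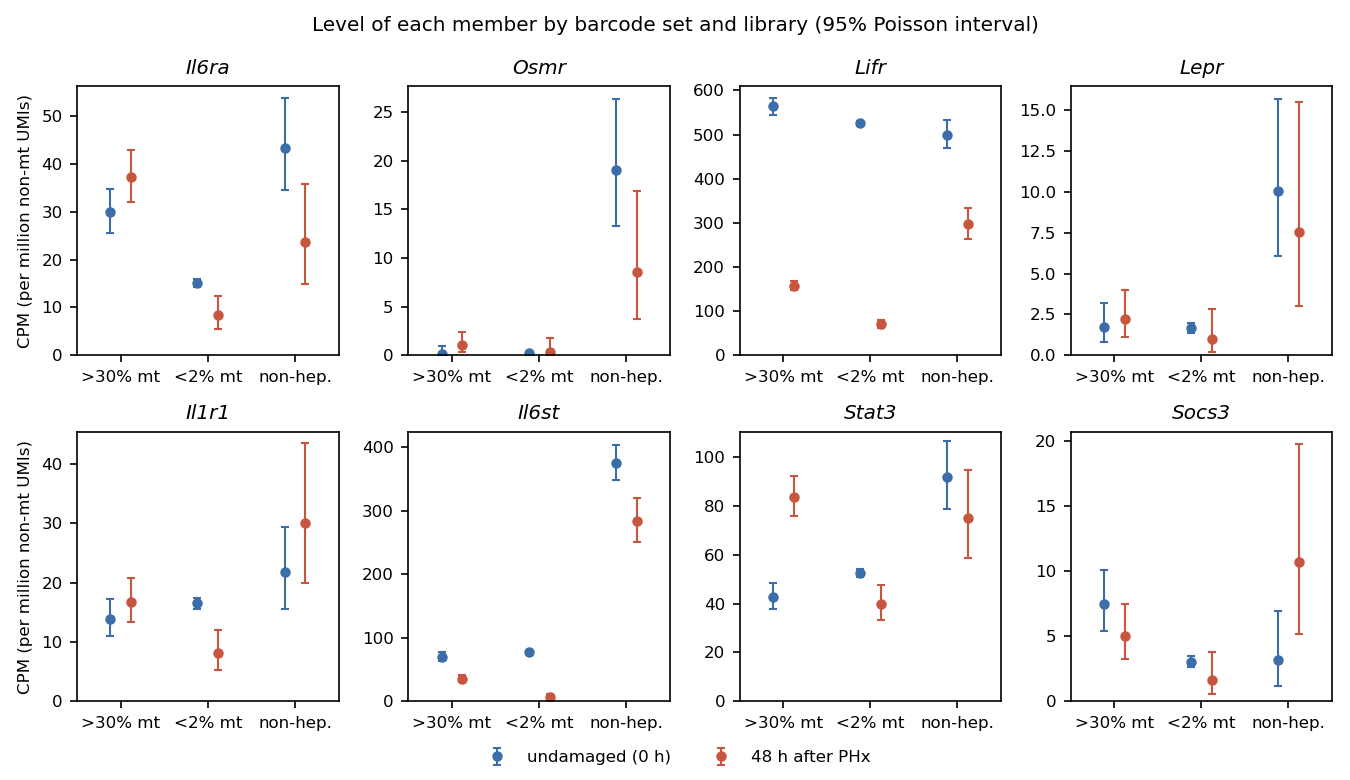
Level of each of the 8 members in CPM (vertical axes, linear, each panel on its own scale) in barcodes above 30% mt, barcodes under 2% mt and non-hepatocyte barcodes, at 0 h (blue) and 48 h (red), with 95% Poisson intervals and 1 library per point. Lifr and Il6st lie lower at 48 h in all 3 sets, Stat3 is higher at 48 h only above 30% mt, and the levels of Osmr and Lepr in the mt sets lie close to 0.

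A 2-fold difference and a mean of both libraries of at least 5 CPM were used to call a member higher or lower, and the same calls over all genes give the background. Above 30% mt, 6 of the 8 members passed the filter, and 0 were called higher, against 31% of the 8507 genes tested, and 1, Lifr, lower, against 5.18%. Under 2% mt 5 passed, with 0 called higher, against 24.2% of 7464 genes, and 3 lower (Il6st, Lifr and Il1r1), against 21%. In the non-hepatocyte barcodes all 8 passed, with 1 called higher (Socs3), against 19.8% of 10586 genes, and 1 lower (Osmr), against 11.1%. Socs3, at 3.18 CPM at 0 h, passed there only through its 48 h level of 10.7, so passing the filter fixed its call. Il6st and Stat3 above 30% mt, at 1.97-fold and 1.95-fold, lay just short of the limit and Il1r1 under 2% mt just past it.

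The ratios of all genes were not centred on 1, and the members were read against that shift. The median log2 ratio of all genes tested was 0.55 above 30% mt, 0.04 under 2% mt and 0.19 in the non-hepatocyte barcodes. On the same log2 scale the members above 30% mt stood at 0.31 (Il6ra), 0.97 (Stat3), 0.27 (Il1r1), -0.57 (Socs3), -0.97 (Il6st) and -1.84 (Lifr), so only Stat3 of these 6 was above the median of all genes. Of the genes called there, 85.7% were higher at 48 h, and 49.2% after TMM normalization. The corresponding shares were 53.5% and 38.1% under 2% mt and 64.1% and 47.3% in the non-hepatocyte barcodes, so that directions near 1 depend on the scaling.

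**Figure D2:**
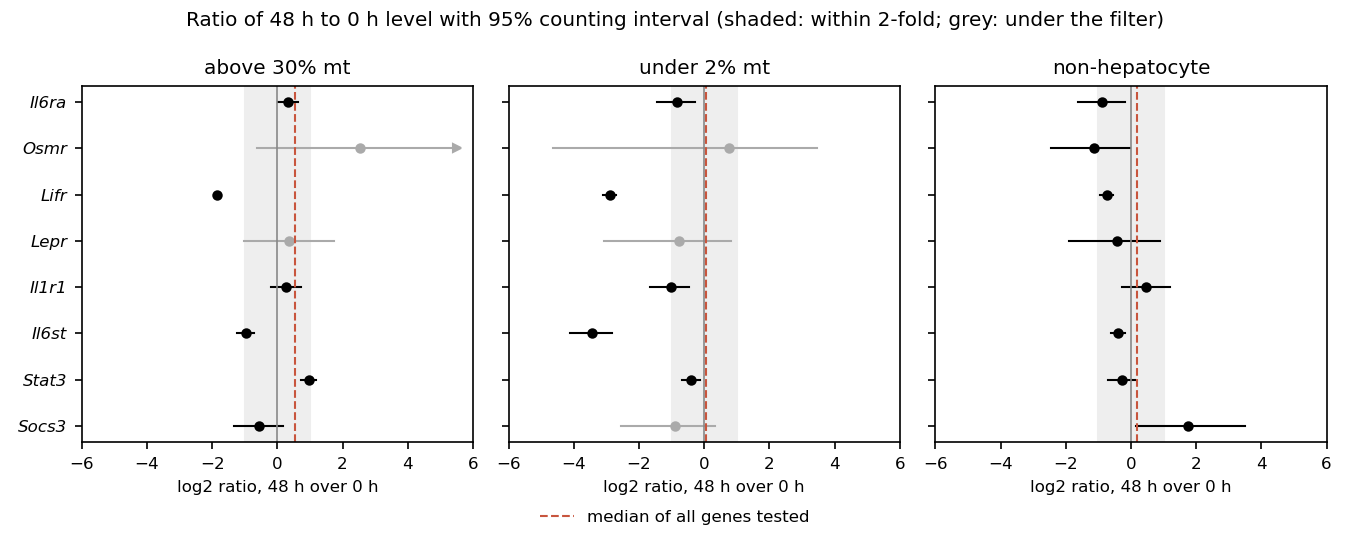
Log2 ratio of the 48 h to the 0 h level (horizontal axes) for the 8 members in the 3 barcode sets, with 95% counting intervals. Grey points are members under the filter, arrowheads mark an interval that leaves the axis, the shaded band is the range within 2-fold, and the dashed line is the median of all genes tested (0.55, 0.04 and 0.19). Of the members that passed the filter, Lifr lies left of the band in both mt sets, and Il6st and Il1r1 do under 2% mt. In the non-hepatocyte barcodes Osmr lies left of the band and Socs3 right of it.

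Within the undamaged library 4 of the 6 members that passed the filter had levels close to each other in the 2 mt sets, and Il6ra and Socs3 did not. The ratio of the level above 30% mt to that under 2% mt was 0.899 (0.810 to 0.994) for Il6st, 0.815 (0.714 to 0.927) for Stat3, 1.07 (1.04 to 1.11) for Lifr and 0.843 (0.664 to 1.06) for Il1r1. Il6ra was higher above 30% mt, at 1.98 (1.68 to 2.32), and Socs3, at 2.46 (1.73 to 3.41), was the 1 member called, against 13.3% of all genes called higher and 9.72% lower in that comparison. Socs3, at 3.04 CPM under 2% mt, passed the filter only through its level of 7.48 above 30% mt, so passing it fixed the call.

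At 48 h the same comparison gave another picture. All 5 members that passed the filter were called higher above 30% mt than under 2% mt, against 35.3% of the 8338 genes tested, and 0 were called lower, against 6.55%. Il6st was higher by 4.96-fold (3.18 to 8.12), Il6ra by 4.39-fold (2.903 to 6.90), Lifr by 2.24-fold (1.93 to 2.62), Stat3 by 2.09-fold (1.71 to 2.58) and Il1r1 by 2.06-fold (1.30 to 3.36). The median log2 ratio of all genes was 0.61 in this comparison and -0.02 in the one at 0 h. Il6st and Il6ra stood above 96.2% and 94.4% of the genes tested at 48 h. Lifr, Stat3 and Il1r1, just past the 2-fold limit, stood above only 71.2%, 67.3% and 66.5%.

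Finer bins of the mt share show where these differences lay. At 48 h the level of Il6st was 7.17 under 2% mt, 26.1 between 2% and 10%, 33.3 between 10% and 30%, 38.0 between 30% and 50% and 33.5 above 50%. Lifr at 48 h went from 70.3 to 141, 151, 144 and 169 over the same bins, so for both genes the gap was between the lowest bin and the rest. Il6ra at 48 h was at 8.47, 28.7, 26.3, 26.5 and 46.2, and its level above 50% mt was 1.74 times that between 30% and 50% (1.27 to 2.41). Stat3 at 48 h was at 40.1, 39.2, 80.6, 71.6 and 94.2. At 0 h Lifr stayed between 525 and 604 and Il6st between 64.0 and 83.4 in all 5 bins.

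**Figure D3:**
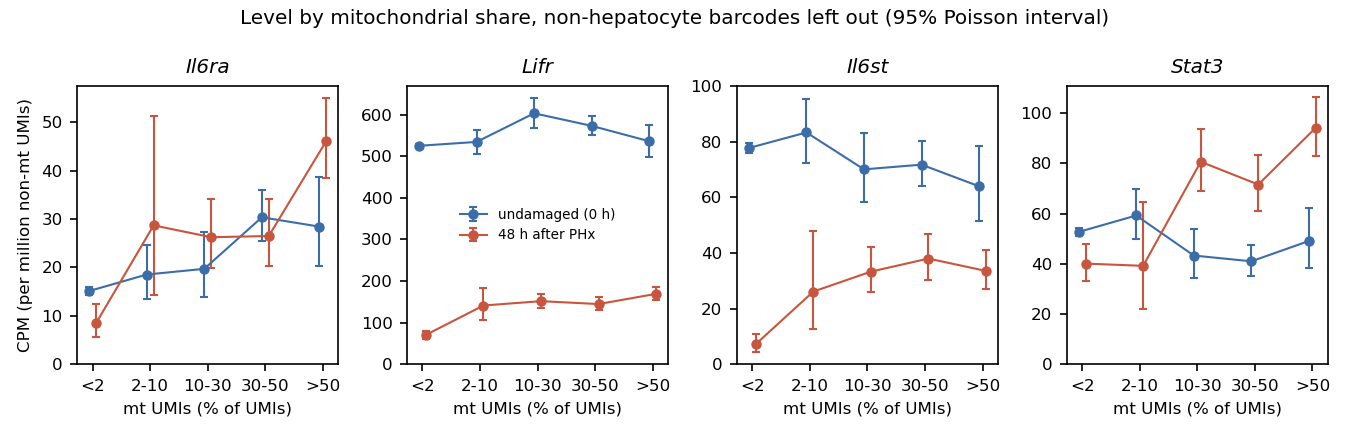
Level of Il6ra, Lifr, Il6st and Stat3 (vertical axes, CPM, linear) in 5 bins of the mt share of a barcode (horizontal axes, percent of UMIs) at 0 h (blue) and 48 h (red), non-hepatocyte barcodes left out, with 95% Poisson intervals. The red lines of Lifr and Il6st lie below the blue lines in every bin and are lowest under 2% mt, whereas the lines of Stat3 cross.

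The non-hepatocyte barcodes were also compared with those above 30% mt, and the members called higher were close in share to all genes. At 0 h 4 of 8 members were called higher there, against 43.3% of the 9585 genes tested, namely Il6st (5.37-fold, 4.74 to 6.08), Stat3 (2.14-fold, 1.76 to 2.61), Lepr (5.78-fold, 2.56 to 13.9) and Osmr, whose ratio of 110 (18.5 to 4446) rests on 1 UMI above 30% mt. Socs3 was called lower (2.35-fold, 0.998 to 6.77), against 5.88% of genes. Osmr and Lepr, at 0.174 and 1.74 CPM above 30% mt, passed the filter only through their non-hepatocyte levels of 19.1 and 10.1. Socs3, at 3.18 CPM in the non-hepatocyte barcodes, passed only through its level of 7.48 above 30% mt. With the lower level so low, passing the filter fixed the calls of these genes. At 48 h 6 members passed the filter, of which Il6st (7.97-fold, 6.57 to 9.71) and Socs3 (2.13-fold, 0.912 to 4.58) were called higher, against 32.3% of 10240 genes, and 0 lower, against 11.1%. Markers define these barcodes, but the members were not among the markers.

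The non-hepatocyte barcodes split into marker classes, of which 3 had at least 20 barcodes in both libraries. Macrophage-like barcodes numbered 281 and 22, endothelial-like 306 and 61 and stromal-like 102 and 38. Of the 10 leading genes of each, 5 to 7 were its own markers and 0 were listed markers of another class. Since the markers define the classes, their lead follows from the definition and is no check of purity. Il6ra was highest in the macrophage-like class, at 81.9 CPM (59 UMIs, 62.4 to 106) at 0 h and 70.1 (9 UMIs, 32.1 to 133) at 48 h. The endothelial-like class had 22.9 (19 UMIs) and 25.5 (12 UMIs) and the stromal-like class 9.31 (2 UMIs) and 3.89 (1 UMI). The macrophage-like level of Il6ra was thus 3.58 times the endothelial-like level at 0 h (endothelial-like over macrophage-like 0.280, 0.157 to 0.476) and 2.75 times at 48 h (0.363, 0.140 to 0.976).

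Il6st and Lifr were highest in the endothelial-like class at 0 h. Il6st was there at 670 CPM (555 UMIs, 615 to 728), against 131 (94 UMIs) in the macrophage-like and 237 (51 UMIs) in the stromal-like class. At 48 h the endothelial-like level was 337 (159 UMIs, 287 to 394), a ratio of 0.504 (0.420 to 0.602), and the stromal-like level was 327 (84 UMIs, 261 to 405). The Il6st ratio of 48 h to 0 h was 1.38 (0.961 to 1.99) in the stromal-like and 0.835 (0.440 to 1.47) in the macrophage-like class. Lifr in the endothelial-like class was at 682 (565 UMIs) and 342 (161 UMIs), a ratio of 0.501 (0.418 to 0.598). The endothelial-like and stromal-like levels of both genes were close to each other at 48 h, with ratios of 0.969 (0.735 to 1.27) for Il6st and 0.980 (0.745 to 1.28) for Lifr.

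Hepatocyte RNA was present in every class. Alb, the transcript of albumin and a product of hepatocytes, was found in the macrophage-like class at 61.4% of its level above 30% mt at 0 h, and Lifr in the same class was at 58.3% (50.9 to 66.6) of its own. At 48 h Alb in the macrophage-like class was at 30.1% and Lifr at 118% (75.4 to 178). Some other hepatocyte transcripts did not follow Alb when set against the barcodes above 30% mt. Over all non-hepatocyte barcodes at 0 h Apoa1, encoding an apolipoprotein, was at 5639 CPM against 27133 above 30% mt. Fabp1, encoding a fatty acid binding protein, was at 3200 against 1522. Set against the barcodes under 2% mt at 0 h, Alb (28666 against 47931), Apoa1 (5639 against 8425) and Fabp1 (3200 against 4758) were all lower. The share read from such transcripts thus depends on the reference set, and the part of hepatocyte RNA in the Lifr of these droplets was not tested. In the endothelial-like class at 0 h Alb was at 61.5%, whereas Lifr was at 121% (110 to 132) and Il6st at 958% (841 to 1092). In the stromal-like class at 0 h Alb was at 79.3% and Lifr at 83.3% (67.7 to 102). At 48 h Alb was at 37.3% in the endothelial-like and 23.3% in the stromal-like class, and Lifr at 216% (181 to 257) and 212% (168 to 265).

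Osmr and Il1r1 were found in the endothelial-like and the stromal-like class. Osmr had 32 UMIs in the endothelial-like class at 0 h (38.6 CPM, 26.4 to 54.5) and 5 at 48 h (10.6, 3.44 to 24.8), the stromal-like class had 4 UMIs (18.6) and 2 (7.78), and the macrophage-like class had 0 UMIs at both times, which allows up to 5.12 CPM at 0 h and 28.7 at 48 h (upper bounds of the exact Poisson intervals). Il1r1 in the endothelial-like class was at 32.6 (27 UMIs) and 40.3 (19 UMIs), against 23.3 (5 UMIs) and 31.1 (8 UMIs) in the stromal-like class and 11.1 (8 UMIs) and 7.79 (1 UMI) in the macrophage-like class. For Lepr the macrophage-like class gave 11 of the 19 non-hepatocyte UMIs at 0 h. Socs3 had 5 of its 10 UMIs at 48 h in the stromal-like class, 4 in the endothelial-like class and 0 in the macrophage-like class.

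Many barcodes met the criteria of several classes, 175 of 742 at 0 h and 54 of 128 at 48 h, and they were deeper, with a median of 3208 and 6695.5 non-mt UMIs against 2042 and 5592. No doublet caller was run, and whether they hold more than 1 cell was not tested. Their Il6st level was 703 and 474 CPM, against 221 and 146 in barcodes that met 1 class, and their Lifr level 660 and 446, against 425 and 190. With 1-class barcodes alone, endothelial-like Il6st was at 528 and 184, a 2.87-fold difference, endothelial-like Lifr at 621 and 232, a 2.68-fold difference, and endothelial-like Osmr at 52.0 (19 UMIs) and 0. Over all non-hepatocyte barcodes of 1 class Lifr was then 2.23-fold lower at 48 h and was called, and the interval of Socs3 (3.96, 0.771 to 25.5) came to include 1. The Il6st level of 1-class macrophage-like barcodes was 74.6 (46 UMIs) and 21.7 (2 UMIs), against 131 and 109 over all of that class, and that of 1-class stromal-like barcodes 199.7 (36 UMIs) and 194 (20 UMIs), a ratio of 0.973 (0.534 to 1.73). Il1r1 at 0 h was then at 16.4 in the endothelial-like and 27.7 in the stromal-like class, each from 6 UMIs or fewer. Il6ra stayed highest in the macrophage-like class, at 82.7 and 75.9.

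**Figure D4:**
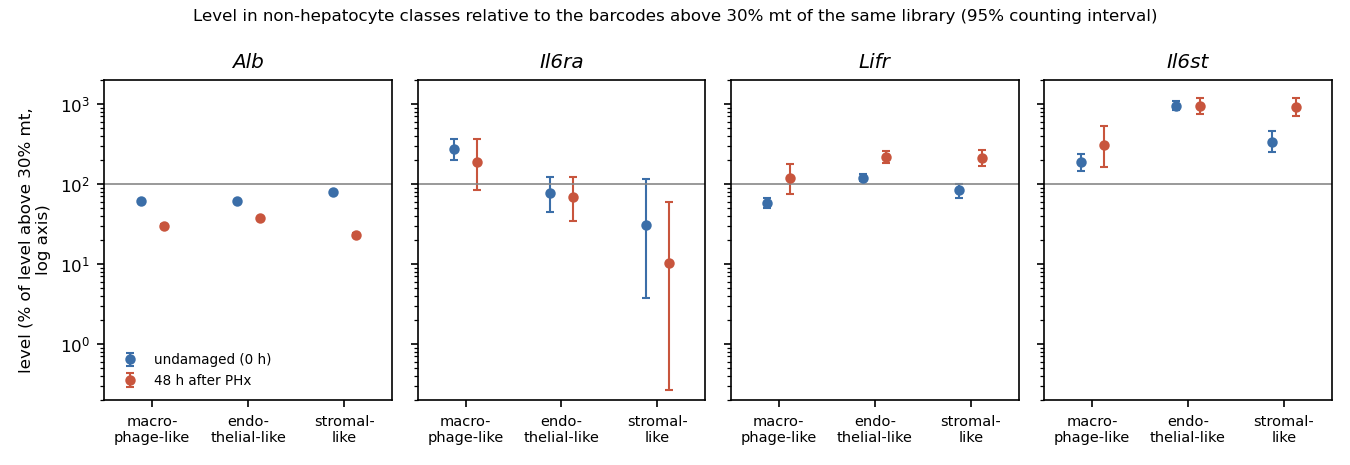
Level of Alb, Il6ra, Lifr and Il6st in the macrophage-like, endothelial-like and stromal-like classes as a percentage of the level above 30% mt in the same library (vertical axis, logarithmic; the line is 100%), at 0 h (blue) and 48 h (red), with 95% counting intervals. Alb lies between 23.3% and 79.3% in every class, Il6ra is above 100% only in the macrophage-like class, and Il6st is above 100% in all 3 classes when barcodes that met several classes are kept.

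Within the barcodes above 30% mt the members were also compared along the liver lobule. Barcodes with at least 10 UMIs of 20 zonal genes, 2850 at 0 h and 747 at 48 h, were divided into 3 equal parts by the perivenous share of these UMIs. Each library was cut separately, at shares of 0.333 and 0.711 at 0 h and 0.150 and 0.408 at 48 h. A part of the same name thus covers other shares at each time. Median non-mt UMIs were 1218 (perivenous) and 1558 (periportal) at 0 h and 3519 and 6461 at 48 h. The part of depth was not tested. At 48 h Lifr was at 187 CPM in the perivenous and 146 in the periportal part, a ratio of 1.28 (1.07 to 1.52), and at 0 h at 588 and 532, a ratio of 1.10 (1.004 to 1.22). Il6st was at 82.5 and 63.2 at 0 h, a ratio of 1.31 (0.996 to 1.71), and at 34.7 and 36.7 at 48 h. Stat3 was at 38.1 and 48.4 at 0 h and at 69.3 and 82.1 at 48 h, with intervals that included 1. Il6ra was at 34.7 and 27.2 at 48 h, and at 53.3 between them. The zonal parts are ranges of a score, and 138 and 116 barcodes at 0 h, and 71 and 18 at 48 h, lay within 0.02 of the lower and the upper limit.

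Cycling separated some members at 48 h. Of the 751 barcodes above 30% mt, 391 held at least 3 different genes of a list of 21 cell cycle genes and 360 held fewer, while 235 lay next to the limit with exactly 2 or 3 such genes. At 0 h only 3 barcodes reached 3 such genes. Il6ra was at 28.5 CPM (100 UMIs, 23.2 to 34.7) in the barcodes with cycle genes and at 58.1 (84 UMIs, 46.4 to 72.0) in the others, a ratio of 0.491 (0.364 to 0.664). Lifr was at 145 and 189 (0.767, 0.661 to 0.892), and Il1r1 at 19.7 (69 UMIs) and 9.69 (14 UMIs), a ratio of 2.03 (1.13 to 3.91), opposite to Il6ra. Stat3 was at 79.9 and 93.4 (0.855, 0.694 to 1.06) and Il6st at 35.1 and 36.7 (0.957, 0.688 to 1.35). The barcodes with cycle genes were deeper, with a median of 6643 against 2948 non-mt UMIs, and had a lower median mt share, at 52.9% against 61.2%, and the part of depth and mt share in these ratios was not tested.

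The share of barcodes with a UMI was compared after thinning each barcode to 500 non-mt UMIs. Lifr was found in 25.1% of the barcodes above 30% mt at 0 h (95% Clopper-Pearson interval 23.8 to 26.6) and in 7.46% at 48 h (5.68 to 9.57), in 22.8% and 3.73% under 2% mt, and in 19.4% and 16.4% of the non-hepatocyte barcodes. Without thinning the Lifr shares above 30% mt were 50.9% and 54.7%, at median depths of 1212.5 and 4293. Il6st was found in 13.6% (11.2 to 16.3) and 12.5% (7.32 to 19.5) of thinned non-hepatocyte barcodes, against 3.57% and 1.33% above 30% mt. For the other members the thinned shares were 6.25% or less in every set. The UMIs of Lifr were spread over the mt sets about as depth alone would spread them, with a dispersion (1 for Poisson counts) of 0.986 to 1.17. In the non-hepatocyte barcodes the dispersion was 1.26 and 2.03 for Lifr and 1.84 and 2.73 for Il6st, with up to 16 UMIs of Il6st in 1 barcode.

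The other genes of the pathway are given from lists chosen by function, as counts called over genes that passed the filter above 30% mt. Of all 8507 genes tested in that set 31% were called higher and 5.18% lower, the background of each list count there. Of 11 ligand genes 0 passed in any set. Il6 had 1 and 0 UMIs above 30% mt, 2 and 0 under 2% mt and 5 and 0 in the non-hepatocyte barcodes, and Osm, the ligand of Osmr, was found with 3 and 0 UMIs only in the last. Ctf1, encoding cardiotrophin, had 10 and 11 UMIs above 30% mt, Clcf1, another cytokine of the family, 0 and 9, and Lif 0 and 1. Of 7 other receptors 0 were called higher and 2 lower. Among them Ghr, the growth hormone receptor, was at 526 and 211 CPM (2.49-fold lower), Egfr, the receptor of epidermal growth factor, at 509 and 459, Prlr, the prolactin receptor, at 83.6 and 108, and Il11ra1, the IL-11-binding chain, at 75.3 and 62.0. The other receptor called lower was Il4ra, of the IL-4 receptor, at 46.2 and 21.6.

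Of 8 kinases and STATs 1 was called higher and 0 lower. The shares over all genes, 31% higher and 5.18% lower, apply to this and the next 2 lists. Jak1, the kinase bound to gp130, was at 29.0 and 65.5 CPM (2.26-fold, 1.87 to 2.73), Stat2 at 49.6 and 41.2 and Stat6 at 20.7 and 23.0. Of 12 negative regulators 3 were higher and 2 lower, and these differed in role. Cish (3.81-fold lower, 39.3 to 10.3) and Socs2 (2.48-fold lower, 44.2 to 17.8) are known as feedback inhibitors of growth hormone signalling, Ptpn11, the phosphatase SHP2, was 2.20-fold higher (18.4 to 40.6), and Pias2, an inhibitor of STATs, was at 12.5 and 22.4. The other 2 called higher were Socs6 (7.48 and 17.2), of the SOCS family, and the phosphatase gene Ptpn1 (7.48 and 21.02). Of 6 genes on the C/EBP family list 1 was higher and 0 lower. Cebpa was at 96.8 and 165, Cebpb at 93.0 and 110 and Cebpg at 20.5 and 29.1, all uncalled. The 1 called higher was Cebpz, at 17.0 and 47.7 (2.80-fold).

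Of 19 acute phase genes 6 were called higher and 3 lower, against 31% and 5.18% of all genes. Their median log2 ratio was 0.51, against 0.55 for all genes. Hpx, encoding hemopexin, was at 7402 and 18481 CPM and called higher, Hp, haptoglobin, at 13403 and 8442, Fgb, a fibrinogen chain, at 6739 and 4600.5 and Orm1, orosomucoid, at 3980 and 4999.8. Further genes were chosen after their values were seen. The widest differences were those of Lcn2 (5.39 and 654), Saa2 (89.5 and 4360) and Saa1 (347 and 6391). Saa1 and Saa2 are near-identical copies whose reads the counting could have split between them. The 3 genes called lower were Crp, C-reactive protein (828 and 279), Lbp (88.0 and 34.4), which binds lipopolysaccharide, and Fga (2915 and 1371), another fibrinogen chain. The acute phase list thus held genes far apart in both directions.

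Of 11 genes of the NF-κB and IL-1 arm 3 were higher and 1 lower, against 31% and 5.18% of all genes. Il1rap, the partner chain of Il1r1, was at 155 and 58.6 CPM (2.65-fold lower), Tnfrsf1a, a receptor of TNF, at 71.6 and 64.3, Irak1, a kinase of the IL-1 receptor, at 27.5 and 49.1 and Nfkbia, the NF-κB inhibitor, at 14.4 and 37.8 (2.62-fold higher). Traf6 (4.69 and 10.1) and Nfkbiz (3.83 and 9.70) were the others called higher. Of 10 dissociation-responsive genes 6 were higher and 0 lower, with a median log2 ratio of 1.21. Of these Jund was at 66.4 and 142, Zfp36 at 74.8 and 99.0, Egr1 at 46.1 and 116 and Jun at 37.6 and 109.

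**Figure D5:**
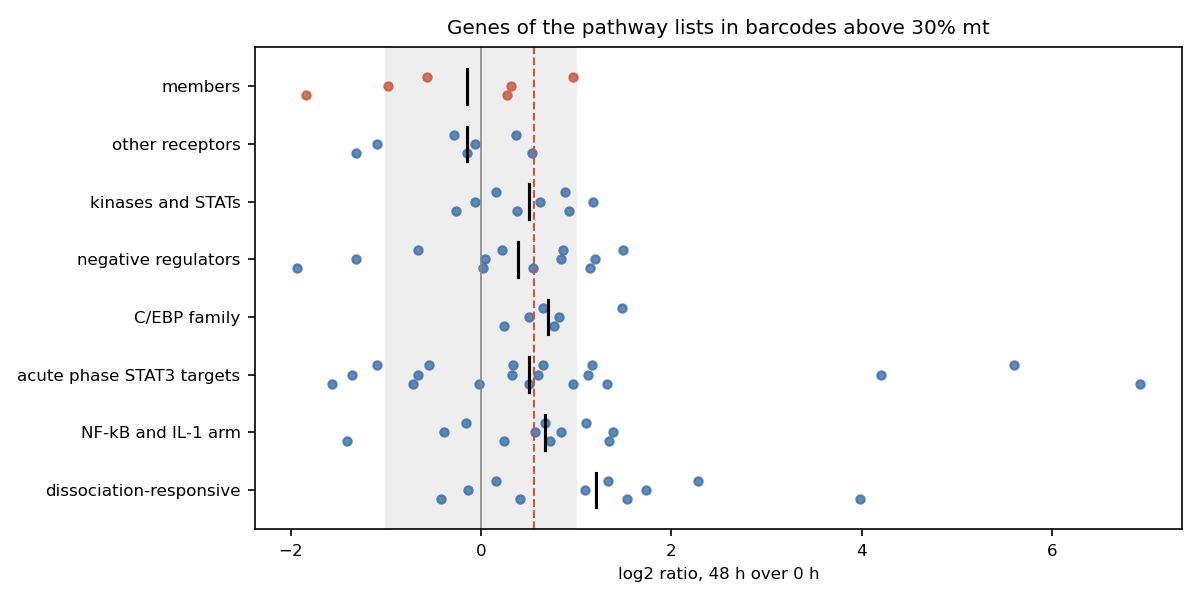
Log2 ratio of the 48 h to the 0 h level above 30% mt (horizontal axis) for the genes that passed the filter in each list (rows, members in red), 1 point per gene. Black bars are list medians, the dashed line is the median of all genes tested (0.55) and the band the range within 2-fold. The acute phase row reaches from Crp on the left to Lcn2, Saa2 and Saa1 on the right, and 4 of the 6 member points lie within the band near or below the dashed line, with Stat3 to its right and Lifr outside the band.

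Under 2% mt, where 24.2% of all genes tested were called higher and 21% lower, 4 of 7 other receptors were lower and 0 higher, among them Ghr (605 and 166 CPM, 3.65-fold) and Egfr (396 and 159, 2.49-fold). Il1rap was 5.85-fold lower there (211 and 36.2). Of 5 kinases and STATs 0 were higher and 2 lower, and of 11 negative regulators 1 and 1. Of 4 genes on the C/EBP family list 0 were higher and 1 lower (Cebpb, 71.6 and 24.8). Of 19 acute phase genes 7 were higher and 5 lower, and of 8 NF-κB genes 1 and 2. In the non-hepatocyte barcodes, where the shares of all genes were 19.8% and 11.1%, 1 of 11 other receptors was higher and 4 lower. Of 9 kinases and STATs 0 were higher and 0 lower, and of 15 negative regulators 0 and 1. Of 5 genes on the C/EBP family list 0 were higher and 0 lower. Of 20 acute phase genes 8 were higher and 4 lower, and of 17 NF-κB genes 1 and 4.

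For the 5 members with at least 20 UMIs in each of the 6 combinations of set and library, the genes with the most similar pattern were found by the root mean square difference of centred log2(level + 5) values over those 6 points. Stat3 was closest to Cnot1 (0.09), Abhd17a (0.11) and Snrnp200 (0.12), and Il1r1 to Nbeal1 (0.09), Akap11 (0.10) and Slc39a1 (0.11). Il6ra was closest to Jmjd1c (0.14), Atxn1 (0.16) and Kdm2a (0.18) and Lifr to Tsc22d1 (0.25), Dhrs3 (0.27) and Dirc2 (0.29). Il6st had no gene as close, with Unc93b1 (0.49), Pltp (0.54) and Lpl (0.55) nearest. Its levels were high in non-hepatocyte barcodes and very low under 2% mt at 48 h. How common such distances are among all genes was not tested. The 6 points share libraries and depth.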

How the data were processed

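Hepatocyte single-cell libraries of both time points were processed by the authors with Cell Ranger (version not given in the sources used here) and mm10, per the submitters' processing notes, and UMI counts per gene and barcode were deposited as whole numbers without normalization. The study removed cells with high mitochondrial content and possible doublets; the deposited barcodes were used here without those filters, because the comparison is across mt shares. Members and gene lists were chosen with earlier results of these data known.

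UMIs were summed per set and divided by non-mt UMIs. Intervals were 95% exact Poisson (levels), conditional binomial (ratios) or Clopper-Pearson (shares). A non-hepatocyte class also required a Poisson tail under 1e-06 at the level of the barcodes under 2% mt. Calls required a mean of 5 CPM and 2-fold, and the ratio of a gene with 0 UMIs in 1 library was taken at a floor of 3 UMIs. Named genes were all members, up to 4 genes per list with the most UMIs above 30% mt, and the 3 genes nearest to a member; Il4ra, Socs6, Ptpn1, Traf6, Nfkbiz and the acute phase genes introduced as such were named after their values were seen, and 1 gene under the rule is not reported here. The fold and interval code was tested on simulated counts. Locations came from GENCODE M21. Python 3.11.15 and, for TMM normalization, edgeR 4.0.16 were used. Depth per set is given with the results. Alternatives changed mt limits, scaling, filters, marker criteria, depth, fold and thinning. No replicates existed. Protein sequences were not used here.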

Additional observations from a re-analysis of the deposited data

Results flagged for a closer look

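Both genes below were flagged because the 48 h library differed from the 0 h library in opposite directions in barcode sets of the same libraries, with counting intervals that did not include 1. Stat3 had a ratio of 1.95 above 30% mt and 0.761 under 2% mt. Il6ra had a ratio of 1.24 above 30% mt, 0.56 under 2% mt and 0.545 in the non-hepatocyte barcodes. The last ratio is over all non-hepatocyte classes together, whose mix differed between the libraries. With 1 library per time point the difference between the sets was not tested, and the direction of Il6ra above 30% mt changed with TMM normalization (0.848), whereas the ratio of Stat3 was then 1.33.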

How the results depend on the processing

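Counts of members called at 48 h depended on the scaling and on the limits. Under 2% mt, where 0 members were called higher and 3 lower, the lower count stayed between 2 and 4 under all alternatives and always held Il6st and Lifr, whereas Il1r1 lay at the limit and dropped out with a 5% mt limit, with a filter of 20 CPM, with 5 CPM added, with non-hepatocyte barcodes left in and without shared barcodes. Above 30% mt the lower count of 1 (Lifr) became 2 with Il6st per all UMIs, without the 20 most abundant genes and at a fold of 1.5, and 3 with Il6st and Socs3 after TMM normalization. The higher count of 0 there became 1 with the mean of single-barcode levels, without the deepest 5% of barcodes and at a fold of 1.5 (Stat3) and 1 with no filter (Osmr). In the non-hepatocyte barcodes the lower count of 1 (Osmr) became 0 with a 5% limit of the low set, a filter of 20 CPM or 5 CPM added. It became 2 per all UMIs, without the 20 most abundant genes, after TMM normalization and without the deepest 5% (Il6ra and Osmr) and with barcodes of 1 class only (Lifr and Osmr), and 3 at a fold of 1.5. The higher count of 1 (Socs3) became 0 with the filter of 20 CPM and with 5 CPM added. The cause was not tested, and in the filter and fold settings it follows from the limit itself. The alternatives without shared barcodes and with 1 class only were chosen after seeing the data.

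Lifr stayed lower by 3.17 to 5.24-fold above 30% mt and by 7.04 to 9.16-fold under 2% mt, and Il6st by 1.80 to 2.88-fold and 6.81 to 13.3-fold. Stat3 above 30% mt ranged from 1.33 to 2.09, and Il6ra (0.848 to 1.62) and Il1r1 (0.823 to 1.61) changed side there. The share of called genes that were higher above 30% mt was 85.7%, but 70% per all UMIs, 73% without the 20 most abundant genes and 49.2% after TMM normalization. No paired analysis was possible because each time point had 1 library. Osmr, Lepr and Socs3 were limited by their few UMIs.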
